A study of Homo sapiens with 12 samples.

Results

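Copying DNA needs a helicase that opens it, proteins that choose where it opens, polymerases that copy it, enzymes that supply nucleotides, and factors that package and mend the product. The 48 genes described here encode such proteins and were taken by gene symbol from a list of replication and repair genes. The list was chosen with earlier results of these data known. Its counts beside all tested genes are therefore a description and no independent test. Of the 48, 47 were named on the arrays, among 11963 genes in all, and UHRF1 was not analysed here. The test covered genes above the median of the array on 3 arrays or more, which held for 46 of the 47 members and for 6821 genes overall. BLM, a helicase of recombination repair, did not reach that level and read between 2.36 and 3.04 log2 on the 12 arrays. By role, 11 tested members belong to the replicative helicase, 7 to origin licensing and firing, 14 to the polymerases and the fork, 5 to nucleotide supply, 4 to chromatin assembly and 5 to repair.

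Expression was measured in LNCaP, a prostate cancer line that responds to androgen, labelled as early tumour stage. The groups were LNCaP cells transfected with miR-205, with miR-203 or with miR-130a, and LNCaP cells given a scramble miRNA as control, with 3 arrays each named as biological replicates. All 12 samples are 1 cell line after transfection, and dose, time after transfection and the arm of each microRNA are not given in the labels. Each comparison with scramble asks which of these transcripts changed when that microRNA was transfected, and the 3 comparisons share the scramble arrays.

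Most of these genes are transcribed in a wave as cells pass from G1 into S phase, and E2F transcription factors are the best known regulators of that wave. Origins are licensed when the origin recognition complex, CDC6 and CDT1 load the MCM ring onto DNA, and they fire when CDC7 with DBF4, CDC45 and the GINS complex turn the ring into a moving helicase. Cells outside the cycle carry little of most of these transcripts. A microRNA guides silencing complexes to messages that match its seed, bases 2 to 8 of the mature strand.

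Mature strands are shown for miR-205 and miR-203 because the groups are defined by these microRNAs. The labels name no arm, so the strand usually meant by each plain name was taken, which may not be the one transfected. The sequences come from RefSeq (GRCh38.p14), at chr1:209432166-209432187 on the plus strand for miR-205-5p and chr14:104117469-104117490 on the plus strand for miR-203a-3p, with the seed in capitals. The seeds differ, so these microRNAs form no shared seed group. hsa-miR-130a-3p is named only.
hsa-miR-205-5p: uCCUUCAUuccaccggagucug
hsa-miR-203a-3p: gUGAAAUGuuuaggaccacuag

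Promoters are shown for the MCM ring, all of whose subunits fell with miR-205 and with miR-203 in the results below, and for TYMS and RRM2 from the nucleotide enzymes. Each runs from 250 bases before the gene start to 30 after it, 5′ to 3′ on the gene's own strand, in RefSeq's GRCh38.p14. Capitals mark matches to the E2F letters TTTCCCGC, TTTGGCGC, TTTCGCGC or TTTGCCGC on either strand. The windows are chr3:127598161-127598440 (plus strand) for MCM2, chr6:52284713-52284992 (minus) for MCM3, chr2:135876414-135876693 (minus) for MCM6, chr7:100101368-100101647 (minus) for MCM7, chr18:657403-657682 (plus) for TYMS and chr2:10122318-10122597 (plus) for RRM2. MCM4 and MCM5 are named only.
MCM2: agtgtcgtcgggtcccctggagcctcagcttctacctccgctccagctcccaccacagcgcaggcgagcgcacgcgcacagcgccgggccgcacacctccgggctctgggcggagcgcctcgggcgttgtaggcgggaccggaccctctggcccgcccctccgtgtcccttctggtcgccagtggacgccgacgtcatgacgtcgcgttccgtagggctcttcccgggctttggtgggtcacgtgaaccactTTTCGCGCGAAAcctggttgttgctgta
MCM3: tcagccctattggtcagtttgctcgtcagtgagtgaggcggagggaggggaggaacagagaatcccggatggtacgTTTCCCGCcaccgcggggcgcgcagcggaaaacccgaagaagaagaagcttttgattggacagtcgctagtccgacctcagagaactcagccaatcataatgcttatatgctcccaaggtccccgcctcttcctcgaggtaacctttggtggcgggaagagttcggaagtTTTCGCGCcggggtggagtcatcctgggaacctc
MCM6: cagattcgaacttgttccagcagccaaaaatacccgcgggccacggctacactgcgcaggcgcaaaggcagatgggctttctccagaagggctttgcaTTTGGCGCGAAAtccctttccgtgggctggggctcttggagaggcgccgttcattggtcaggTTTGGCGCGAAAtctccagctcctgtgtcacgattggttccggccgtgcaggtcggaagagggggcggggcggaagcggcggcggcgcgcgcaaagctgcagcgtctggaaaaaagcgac
MCM7: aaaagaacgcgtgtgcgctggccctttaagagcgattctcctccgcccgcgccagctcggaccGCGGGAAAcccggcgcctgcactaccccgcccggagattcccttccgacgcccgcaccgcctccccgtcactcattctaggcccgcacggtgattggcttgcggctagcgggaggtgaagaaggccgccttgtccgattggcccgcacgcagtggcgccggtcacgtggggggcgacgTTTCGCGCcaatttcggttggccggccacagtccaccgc
TYMS: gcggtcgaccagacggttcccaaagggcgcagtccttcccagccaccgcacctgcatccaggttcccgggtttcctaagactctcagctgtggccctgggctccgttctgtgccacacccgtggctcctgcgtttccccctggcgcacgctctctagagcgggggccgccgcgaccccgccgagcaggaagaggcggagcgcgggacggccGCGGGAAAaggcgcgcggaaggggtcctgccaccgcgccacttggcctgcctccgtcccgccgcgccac
RRM2: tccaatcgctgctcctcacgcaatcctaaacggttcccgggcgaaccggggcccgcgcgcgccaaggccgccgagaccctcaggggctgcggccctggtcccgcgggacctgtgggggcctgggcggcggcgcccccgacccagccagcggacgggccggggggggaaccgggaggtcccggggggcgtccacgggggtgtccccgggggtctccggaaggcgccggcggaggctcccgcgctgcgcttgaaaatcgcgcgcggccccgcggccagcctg

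MCM2 has 2 overlapping matches, which start at bases 3 and 7 counted from the gene start. MCM3 has matches at -174 and -4, and MCM7 at -187 and -9. MCM6 holds 4 matches as 2 overlapping pairs, at -152 and -148 and at -90 and -86. TYMS has 1 match at -39, and these letters are not in the RRM2 window shown. Over windows of 250 bases before to 50 after the start, the E2F letters occurred in 24 of 66 listed promoters of members (36.4%), against 450 of 8494 promoters of tested genes (5.3%) and 1164 of 35116 promoters in the table (3.31%). RefSeq promoters were found for 45 of the 48 members, of which 23 had a match. CCAAT occurred in 51.5% of member promoters, 36.4% of tested genes' promoters and 34.6% of all promoters, and the Sp1 letters GGGCGG in 78.8%, 67.4% and 45.0%, both searched on either strand. A match is a description of letters in a window.

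The arrays shared 1 scale, with medians between 2.76 and 2.78 log2, and arrays of 1 group correlated across tested genes with r between 0.992 and 0.997, against 0.964 to 0.986 between groups. The LNCaP markers KLK2, KLK3, TMPRSS2, HOXB13 and FOLH1 lay above the array median on all 12 arrays. TP63 was not analysed here. Of the markers of other cell types, KRT5, KRT14, COL1A2, PECAM1 and PTPRC were above the median on 0 arrays, while VIM was on 10 (2.66 to 3.48 log2) and COL1A1 on 12 (2.9 to 3.46 log2). The 3′ minus 5′ difference, a sign of RNA quality, lay between 2.21 and 2.46 log2 for ACTB with miR-205, 2.18 and 2.54 with miR-203, 2.18 and 2.33 with miR-130a, and 2.30 and 2.66 with scramble. For GAPDH it was 0.60 to 0.73, 0.74 to 0.80, 0.72 to 0.74 and 0.56 to 0.90 in the same order.

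With miR-205, 38 of the 46 tested members fell and 0 rose (limma, Benjamini-Hochberg over all tested genes, adjusted p under 0.05), where 14.8% of all tested genes fell and 11.3% rose. Their median difference was -0.82 log2, against -0.004 for all tested genes, and 0 of the 46 members lay above 0. With miR-203, 28 of 46 fell and 0 rose, against 18.9% of all tested genes lower and 17.3% higher, and the median was -0.40 log2 against 0.006. With miR-130a, 21 of 46 rose and 0 fell, against 12% of all tested genes higher and 11.6% lower, and the median was 0.36 log2 against -0.009. At an unadjusted p under 0.05 the number higher with miR-203 and the number lower with miR-130a were also 0. By the moderated F-test, 44 of 46 members differed among the 4 groups, against 60.8% of all tested genes. The exceptions were ORC1 (adjusted p = 0.0564) and POLD1 (adjusted p = 0.0721). In these bulk samples, fewer cycling cells and less of these RNAs per cell cannot be told apart.

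**Figure D1:**
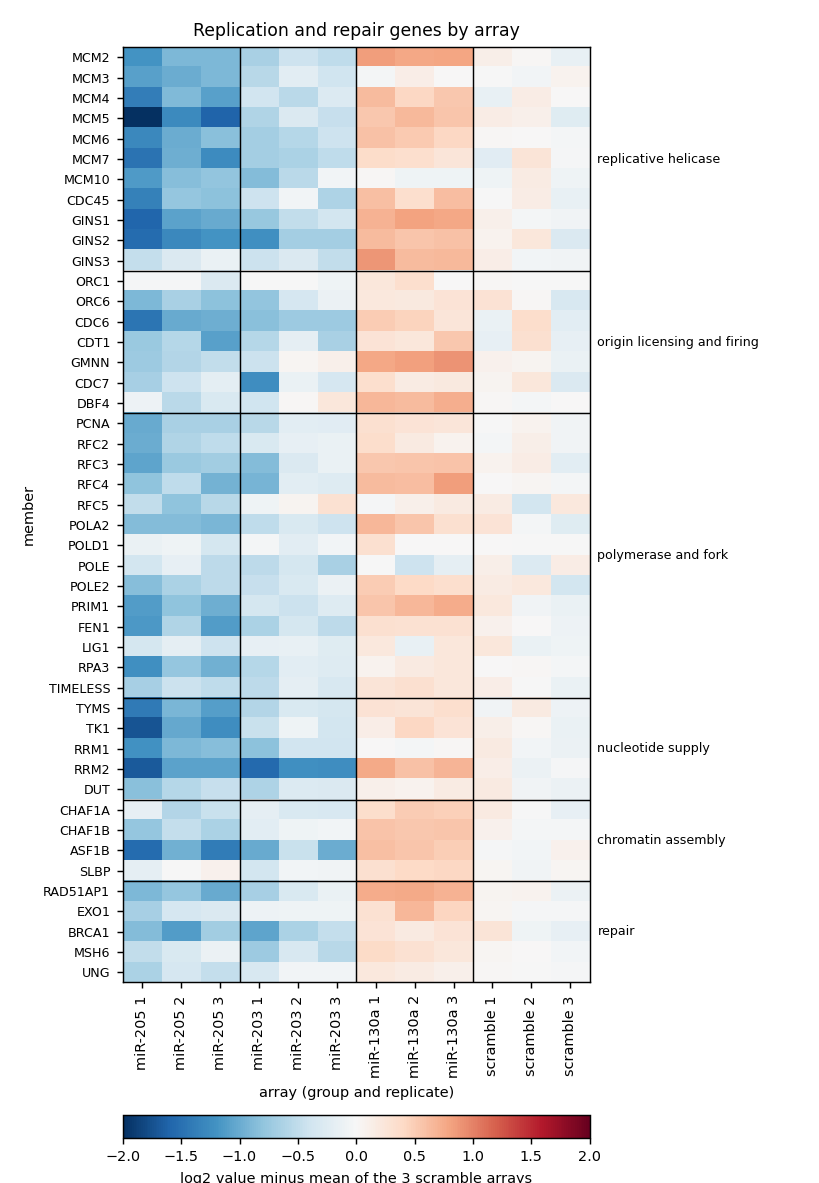
Each row is a tested member, ordered by role, and each column an array. Colour gives the log2 value minus the mean of the 3 scramble arrays. The miR-205 and miR-203 columns are mostly blue (lower), deepest in replicate 1 of each, and the miR-130a columns mostly red (higher).

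Averaged over the 46 members, the arrays lay -0.94, -0.68 and -0.74 log2 from the scramble mean with miR-205, and -0.58, -0.30 and -0.33 with miR-203. The miR-130a arrays lay 0.40, 0.37 and 0.37 above it, and the scramble arrays themselves at 0.06, 0.03 and -0.09. Replicate 1 was the lowest array of both the miR-205 and the miR-203 group, and no group's arrays overlapped with scramble on this average. Without miR-203 replicate 1, 17 members were lower with miR-203 instead of 28, and without it and miR-205 replicate 1 together 21 were (an alternative added after the data were seen), with 37 lower with miR-205 and 25 higher with miR-130a. For miR-205 against scramble the count stayed between 36 and 40 whichever single array was left out, and for miR-130a between 16 and 24.

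**Figure D2:**
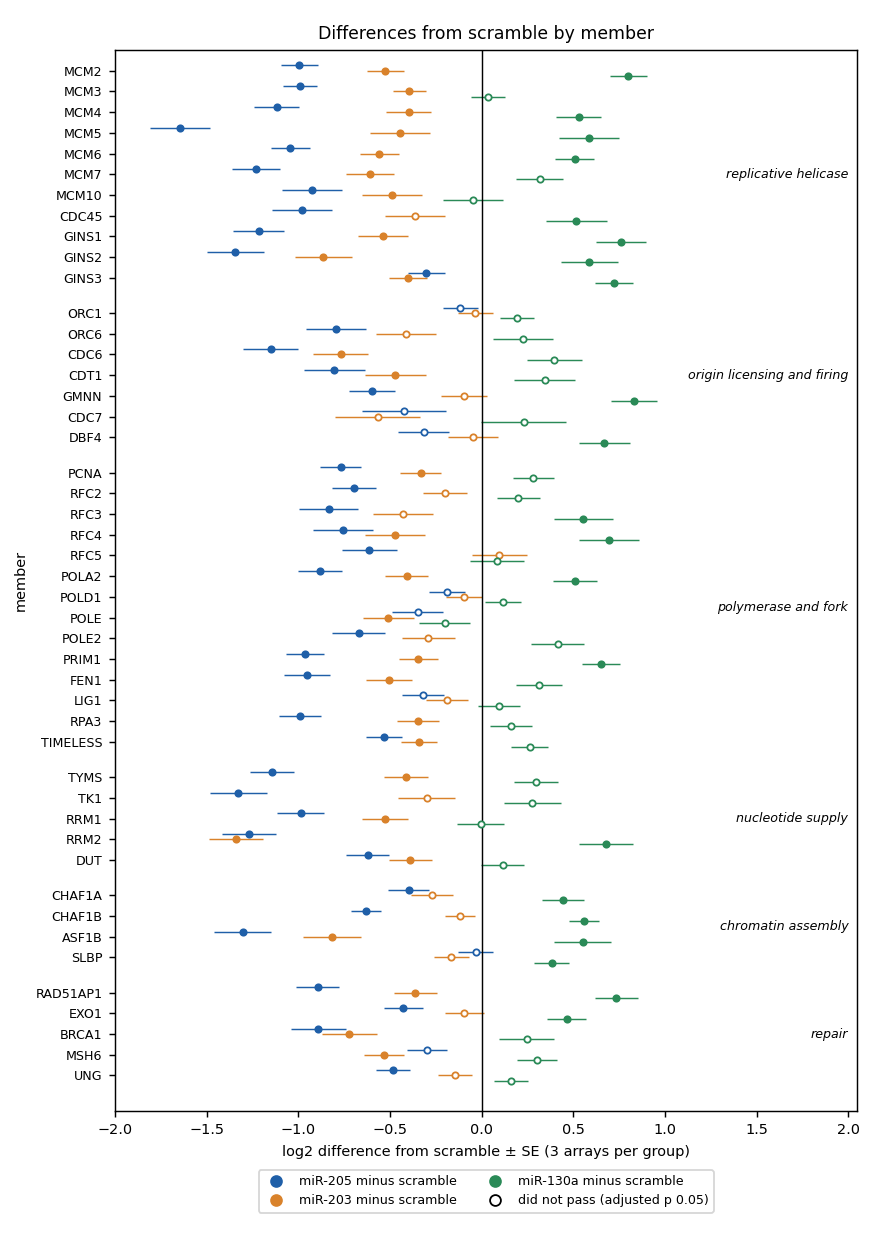
Points are log2 differences from scramble with the standard error of the limma fit (3 arrays per group), 1 row per tested member, and open points did not pass. All 46 miR-205 points lie below 0, 45 of 46 miR-203 points lie below 0, and 43 of 46 miR-130a points lie above 0.

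In the replicative helicase, all 11 tested members fell with miR-205 (median -1.04 log2), 10 of 11 fell with miR-203 (median -0.49), and 8 of 11 rose with miR-130a (median 0.53). MCM2, a subunit of the MCM ring, read 5.52, 5.81 and 5.82 log2 with miR-205, 6.05, 6.29 and 6.21 with miR-203, 7.55, 7.48 and 7.50 with miR-130a, and 6.83, 6.74 and 6.56 with scramble. The 4 groups did not overlap, and against scramble MCM2 changed by -0.99 ± 0.10, -0.53 ± 0.10 and 0.80 ± 0.10 log2 in that order of microRNAs (SE of the fit, 3 arrays per group, as for every ± below). Their adjusted p were 1.57e-05, 0.00127 and 8.6e-05.

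MCM6, another ring subunit, read 5.86, 6.16 and 6.32 log2 with miR-205, 6.47, 6.58 and 6.74 with miR-203, 7.74, 7.68 and 7.57 with miR-130a, and 7.18, 7.17 and 7.12 with scramble. Its groups were also separate, with differences from scramble of -1.04 ± 0.11, -0.56 ± 0.11 and 0.51 ± 0.11 log2. MCM4 read 4.52, 5.02 and 4.81 log2 with miR-205, 5.52, 5.37 and 5.63 with miR-203, 6.54, 6.32 and 6.44 with miR-130a, and 5.75, 6.05 and 5.91 with scramble. It fell by 1.12 ± 0.12 log2 with miR-205 and by 0.40 ± 0.12 with miR-203, and rose by 0.53 ± 0.12 with miR-130a. The dimmer MCM4 probe sets gave between -0.97 and -0.26 log2 with miR-205, between -0.35 and -0.04 with miR-203 and between 0.27 and 0.43 with miR-130a. MCM5 read 3.94, 4.71 and 4.37 log2 with miR-205, 5.39, 5.70 and 5.52 with miR-203, 6.52, 6.63 and 6.54 with miR-130a, and 6.13, 6.08 and 5.73 with scramble. On this probe set MCM5 had the largest fall of the members with miR-205 (-1.64 ± 0.16 log2, or 3.12 times as much signal in scramble), and the miR-205 arrays spread more widely (SD 0.39 log2) than the others. A second, dimmer MCM5 probe set gave -0.86, -0.42 and 0.40 log2 with miR-205, miR-203 and miR-130a, and on it the fall with miR-205 would not be the largest. On the brighter probe set the miR-203 difference, -0.45 ± 0.16 log2, only just passed (adjusted p = 0.0473).

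MCM3 and MCM7 complete the ring. MCM3 fell by 0.99 ± 0.09 log2 with miR-205 and by 0.39 ± 0.09 with miR-203, while its miR-130a difference was 0.03 ± 0.09 log2 (adjusted p = 0.843). MCM7 fell by 1.23 ± 0.13 and 0.61 ± 0.13 log2 with the same microRNAs, and its miR-130a difference of 0.32 ± 0.13 did not pass (adjusted p = 0.101). So all 6 ring subunits fell with miR-205 and with miR-203, and 4 of 6 rose with miR-130a. MCM10, which helps to start the helicase, fell by 0.93 ± 0.16 log2 with miR-205 and by 0.49 ± 0.16 with miR-203, where its values overlapped with scramble, and differed by -0.05 ± 0.16 with miR-130a.

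GINS1, GINS2 and GINS3 belong to the GINS complex, and CDC45 joins it on the ring. GINS1 read 4.92, 5.43 and 5.49 log2 with miR-205, 5.74, 6.01 and 6.13 with miR-203, 7.19, 7.31 and 7.27 with miR-130a, and 6.60, 6.46 and 6.42 with scramble. Its groups were separate, at -1.22 ± 0.14, -0.54 ± 0.14 and 0.76 ± 0.14 log2 from scramble. GINS2 read 4.37, 4.62 and 4.71 log2 with miR-205, 4.68, 5.23 and 5.23 with miR-203, 6.54, 6.46 and 6.49 with miR-130a, and 5.97, 6.14 and 5.62 with scramble. The miR-205 and miR-203 arrays of GINS2 overlapped each other but not scramble, from which they differed by -1.34 ± 0.16 and -0.86 ± 0.16 log2, and miR-130a was higher by 0.59 ± 0.16.

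CDC45 read 2.44, 3.03 and 2.97 log2 with miR-205, 3.37, 3.74 and 3.18 with miR-203, 4.39, 4.12 and 4.42 with miR-130a, and 3.78, 3.95 and 3.65 with scramble. It was the helicase member that did not pass with miR-203 (-0.36 ± 0.16 log2, adjusted p = 0.105), and it fell by 0.98 ± 0.16 log2 with miR-205 and rose by 0.52 ± 0.16 with miR-130a. GINS3 read 2.78, 2.97 and 3.12 log2 with miR-205, 2.83, 2.97 and 2.77 with miR-203, 4.14, 3.89 and 3.91 with miR-130a, and 3.39, 3.20 and 3.19 with scramble. The miR-205 and miR-203 values of GINS3 overlapped each other close below scramble, while miR-130a was clearly above (0.72 ± 0.10 log2, adjusted p = 0.000253). Its fall with miR-205 of 0.30 ± 0.10 log2 (adjusted p = 0.0464) was lost on leaving out single arrays, with the adjusted p then reached in brackets: miR-205 replicate 1 (0.189) or 2 (0.0869), any scramble replicate (0.0653 to 0.149), miR-203 replicate 1 (0.0517) or 2 (0.0502), or miR-130a replicate 2 (0.0558) or 3 (0.0591).

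Some other helicase calls were also lost when 1 array was left out. With miR-203, the fall of MCM5 was lost without any 1 of 8 arrays, most of all miR-203 replicate 1 (0.145), and kept without miR-205 replicates 1 and 2, miR-203 replicate 2 and scramble replicate 3. That of MCM4 was lost without miR-203 replicate 2 (0.0863) or scramble replicates 2 (0.0879) or 3 (0.058). That of MCM10 was lost without replicates 1 (0.136) or 2 (0.0843) of miR-203, or 2 (0.115) or 3 (0.0523) of scramble. With miR-130a, the rise of CDC45 was lost without miR-130a replicates 1 (0.114) or 3 (0.124) or scramble replicates 1 (0.08) or 3 (0.136). Those of MCM5 and GINS2 were lost without scramble replicate 3 (0.0917 and 0.0738), that of MCM5 also without miR-130a replicate 2 (0.0679) and that of GINS2 without miR-130a replicate 1 (0.0509).

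The origin genes moved less evenly. With miR-205, 4 of 7 fell (median -0.60 log2), with miR-203 2 of 7 fell (median -0.41), and with miR-130a 2 of 7 rose (median 0.34). The 28.6% called with miR-203 compares with 36.2% of all tested genes (18.9% lower). The 28.6% called with miR-130a compares with 23.6% (12% higher). CDC6, which loads the MCM ring, read 3.39, 3.85 and 3.87 log2 with miR-205, 4.01, 4.12 and 4.12 with miR-203, 5.36, 5.29 and 5.09 with miR-130a, and 4.72, 5.20 and 4.63 with scramble. It fell by 1.15 ± 0.15 log2 with miR-205 and by 0.77 ± 0.15 with miR-203, and its miR-130a values overlapped with scramble (0.40 ± 0.15 log2, adjusted p = 0.0768). A second CDC6 probe set gave 0.73 log2 with miR-130a, -1.11 with miR-205 and -0.58 with miR-203. CDT1, its partner in loading, read 3.02, 3.19 and 2.67 log2 with miR-205, 3.19, 3.58 and 3.11 with miR-203, 4.03, 3.99 and 4.30 with miR-130a, and 3.60, 4.08 and 3.60 with scramble. CDT1 fell by 0.80 ± 0.17 log2 with miR-205 and by 0.47 ± 0.17 with miR-203 (adjusted p = 0.0423), a call lost without miR-203 replicate 1 (0.12) or 3 (0.14), scramble replicate 2 (0.176), miR-205 replicate 1 (0.0546), or miR-130a replicate 1 (0.0543) or 2 (0.0521).

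GMNN encodes geminin, which holds CDT1 inactive after S phase begins. It read 6.47, 6.61 and 6.71 log2 with miR-205, 6.76, 7.23 and 7.30 with miR-203, 7.97, 8.01 and 8.09 with miR-130a, and 7.28, 7.25 and 7.05 with scramble. The miR-203 arrays of GMNN spanned the scramble values (-0.10 ± 0.12 log2, adjusted p = 0.577), while it fell by 0.60 ± 0.12 with miR-205 and rose by 0.83 ± 0.12 with miR-130a, the largest rise of the 46 members. DBF4, the activator of the CDC7 kinase, read 5.64, 5.21 and 5.44 log2 with miR-205, 5.35, 5.77 and 5.98 with miR-203, 6.40, 6.37 and 6.47 with miR-130a, and 5.77, 5.71 and 5.75 with scramble. DBF4 rose by 0.67 ± 0.14 log2 with miR-130a and did not pass with miR-205 (-0.32 ± 0.14, adjusted p = 0.114) or miR-203 (-0.05 ± 0.14, adjusted p = 0.825).

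CDC7, the kinase itself, read 4.28, 4.55 and 4.76 log2 with miR-205, 3.72, 4.83 and 4.62 with miR-203, 5.29, 5.12 and 5.15 with miR-130a, and 5.01, 5.19 and 4.67 with scramble. Its miR-203 arrays were the most scattered of the members (SD 0.59 log2), with replicate 1 far below the others, and no comparison with scramble passed (adjusted p = 0.206, 0.0719 and 0.522 for miR-205, miR-203 and miR-130a). ORC1, the largest subunit of the origin recognition complex, read 3.02, 3.02 and 2.75 log2 with miR-205, 3.03, 3.04 and 2.96 with miR-203, 3.26, 3.39 and 3.06 with miR-130a, and 3.06, 3.03 and 3.03 with scramble. ORC1 stayed near the lower end of the scale in all 4 groups and did not pass against scramble in any comparison (differences -0.12, -0.03 and 0.19, each ± 0.09 log2). ORC6, another subunit of the complex, fell by 0.79 ± 0.16 log2 with miR-205, and differed by -0.41 ± 0.16 (adjusted p = 0.0662) with miR-203 and by 0.23 ± 0.16 (adjusted p = 0.361) with miR-130a.

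Among the polymerase and fork genes, 11 of 14 fell with miR-205 (median -0.73 log2), 8 of 14 fell with miR-203 (median -0.34) and 4 of 14 rose with miR-130a (median 0.27). The 28.6% called with miR-130a compares with 23.6% of all tested genes (12% higher). PRIM1, the catalytic primase subunit that lays RNA primers, read 3.53, 3.84 and 3.67 log2 with miR-205, 4.29, 4.22 and 4.39 with miR-203, 5.19, 5.31 and 5.38 with miR-130a, and 4.85, 4.57 and 4.51 with scramble. Its groups were separate, at -0.96 ± 0.10, -0.34 ± 0.10 and 0.65 ± 0.10 log2 from scramble. POLA2, a subunit of the polymerase alpha complex that extends those primers, read 4.22, 4.22 and 4.18 log2 with miR-205, 4.58, 4.79 and 4.67 with miR-203, 5.75, 5.64 and 5.41 with miR-130a, and 5.36, 5.06 and 4.85 with scramble. POLA2 was separate in all 4 groups too, at -0.88 ± 0.12, -0.41 ± 0.12 and 0.51 ± 0.12 log2 from scramble.

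FEN1, the flap nuclease that trims the ends of lagging-strand fragments, read 5.91, 6.44 and 5.94 log2 with miR-205, 6.41, 6.69 and 6.53 with miR-203, 7.37, 7.36 and 7.36 with miR-130a, and 7.14, 7.06 and 6.95 with scramble. The miR-205 and miR-203 arrays lay below scramble without overlap (-0.95 ± 0.13 and -0.50 ± 0.13 log2), and the miR-130a arrays just above it (0.31 ± 0.13, adjusted p = 0.0935). RPA3, a subunit of the complex that coats unwound DNA, read 6.98, 7.43 and 7.25 log2 with miR-205, 7.64, 8.0 and 7.96 with miR-203, 8.28, 8.38 and 8.44 with miR-130a, and 8.22, 8.23 and 8.17 with scramble. RPA3 fell by 0.99 ± 0.12 log2 with miR-205 and by 0.34 ± 0.12 with miR-203, and differed by 0.16 ± 0.12 with miR-130a (adjusted p = 0.357).

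RFC2 to RFC5 are subunits of the clamp loader, which sets the PCNA ring on DNA. RFC4 read 5.26, 5.56 and 5.12 log2 with miR-205, 5.13, 5.85 and 5.81 with miR-203, 6.69, 6.68 and 6.90 with miR-130a, and 6.07, 6.10 and 6.03 with scramble. RFC3 read 4.95, 5.27 and 5.32 log2 with miR-205, 5.16, 5.73 and 5.88 with miR-203, 6.55, 6.57 and 6.59 with miR-130a, and 6.08, 6.16 and 5.80 with scramble. Both rose with miR-130a (RFC4 by 0.69 ± 0.16 and RFC3 by 0.55 ± 0.16 log2) and fell with miR-205 (by 0.75 ± 0.16 and 0.83 ± 0.16), and in both replicate 1 was well below the other miR-203 arrays. With miR-203, RFC4 fell by 0.47 ± 0.16 log2 (adjusted p = 0.0393) and RFC3 differed by -0.43 ± 0.16 (adjusted p = 0.0544).

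PCNA, the sliding clamp, fell by 0.77 ± 0.11 log2 with miR-205 and by 0.33 ± 0.11 with miR-203, and lay 0.28 ± 0.11 higher with miR-130a (adjusted p = 0.0887). RFC2 fell with miR-205 (-0.70 ± 0.12 log2) and did not pass with miR-203 (-0.20 ± 0.12) or miR-130a (0.20 ± 0.12). RFC5 fell with miR-205 (-0.61 ± 0.15 log2), but its direction with miR-203 depended on the probe set. The brightest RFC5 probe set, which stood for the gene, gave 0.10 ± 0.15 log2 with miR-203, and the other RFC5 probe sets gave -0.50 and -0.53. With miR-130a the same probe sets gave 0.08, 0.39 and 0.50 log2.

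TIMELESS, which protects stalled forks, fell by 0.53 ± 0.10 log2 with miR-205 and by 0.34 ± 0.10 with miR-203, and differed by 0.26 ± 0.10 with miR-130a (adjusted p = 0.0758). The catalytic polymerase subunits passed in few comparisons. POLD1, of polymerase delta, read 3.70, 3.76 and 3.49 log2 with miR-205, 3.80, 3.63 and 3.79 with miR-203, 4.16, 3.84 and 3.85 with miR-130a, and 3.85, 3.83 and 3.83 with scramble, and no comparison with scramble passed. POLE, of polymerase epsilon, passed with miR-203 (-0.51 ± 0.14 log2, adjusted p = 0.0119), and did not with miR-205 (-0.35 ± 0.14, adjusted p = 0.084) or miR-130a (-0.20 ± 0.14, adjusted p = 0.335), where it was the member with the lowest difference. POLE2, its accessory subunit, fell with miR-205 (-0.67 ± 0.14 log2) and lay 0.42 ± 0.14 higher with miR-130a (adjusted p = 0.0537) and -0.29 ± 0.14 from scramble with miR-203 (adjusted p = 0.135).

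LIG1, the ligase that joins lagging-strand fragments, was above the array median on 3 of 12 arrays. It read 2.45, 2.61 and 2.38 log2 with miR-205, 2.65, 2.65 and 2.55 with miR-203, 3.01, 2.66 and 3.02 with miR-130a, and 3.02, 2.67 and 2.71 with scramble. No miR-205 or miR-203 array lay above its median, and of the scramble arrays only that at 3.02 log2 did. The bound for LIG1, 1.03-fold lower than scramble with each, therefore rests on that scramble array. Neither difference passed (adjusted p = 0.0577 and 0.229). Several miR-203 calls of this role were lost on leaving out miR-203 replicate 1: PCNA (0.134), RFC4 (0.141), POLA2 (0.0575), RPA3 (0.133) and TIMELESS (0.0654). Leaving out scramble replicate 1 had the same effect on those 5 genes (0.0629 to 0.0807) and on PRIM1 (0.0829), which also missed without miR-203 replicate 2 (0.071). Scramble replicate 2 did so for PCNA (0.0961), RFC4 (0.0932) and RPA3 (0.0798), scramble replicate 3 for RFC4 (0.0764), RPA3 (0.0603) and POLE (0.0539), and miR-205 replicate 1, miR-130a replicate 1 and miR-130a replicate 2 for RFC4 (0.0511 to 0.0513). With miR-130a, RFC3 missed without any of its own 3 replicates (0.0617 to 0.0698) or scramble replicate 3 (0.108).

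**Figure D3:**
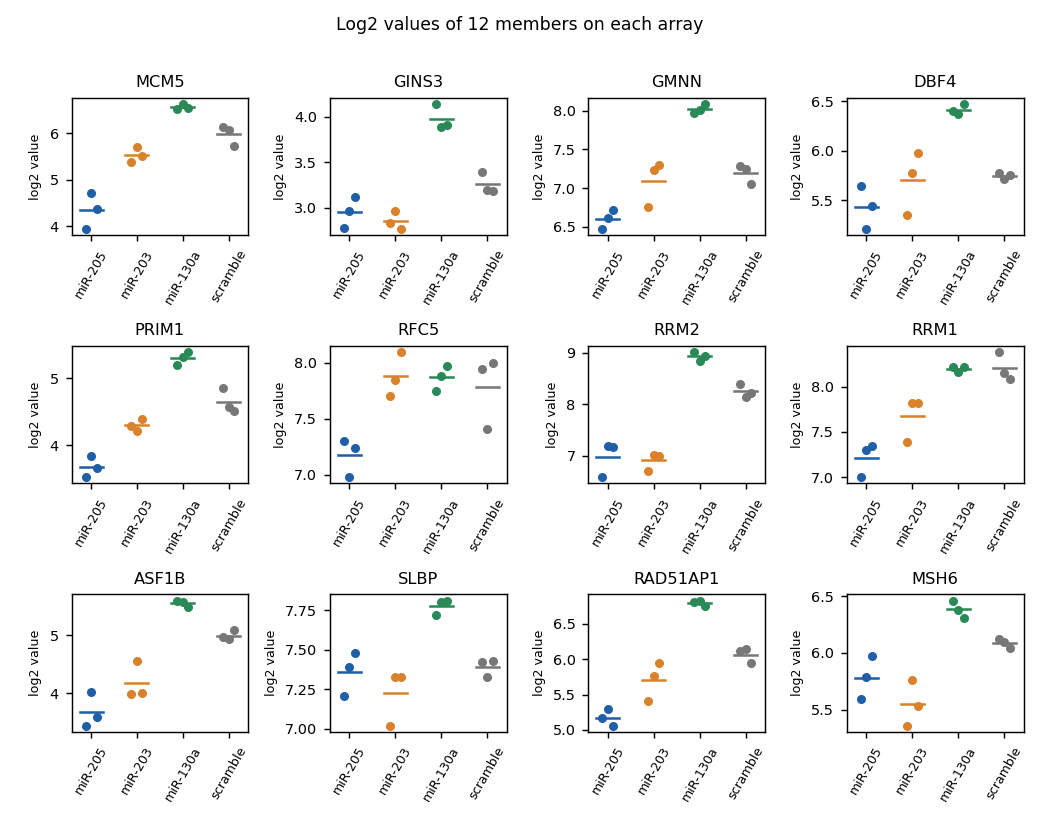
Points are log2 values on single arrays and bars are group means, for 12 members (2 of each role), with the groups in the order miR-205, miR-203, miR-130a and scramble. In RRM2 the miR-205 and miR-203 arrays lie together between 6.58 and 7.19 and the scramble arrays between 8.14 and 8.39, in SLBP only the miR-130a arrays stand apart, and in GINS3, RRM2, SLBP and MSH6 the miR-203 mean is the lowest.

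All 5 genes of nucleotide supply fell with miR-205 (median -1.14 log2), 4 of 5 with miR-203 (median -0.41), and 1 of 5 rose with miR-130a (median 0.28). The 20% called with miR-130a compares with 23.6% of all tested genes (12% higher). RRM1 and RRM2 are the large and small subunits of ribonucleotide reductase, which makes deoxynucleotides. RRM2 read 6.58, 7.19 and 7.17 log2 with miR-205, 6.70, 7.02 and 7.0 with miR-203, 9.01, 8.84 and 8.94 with miR-130a, and 8.39, 8.14 and 8.22 with scramble. It had the largest fall of the members with miR-203 (-1.34 ± 0.15 log2, or 2.53 times as much signal in scramble), and its miR-205 arrays overlapped with the miR-203 ones (-1.27 ± 0.15 from scramble). A second RRM2 probe set gave -1.57 log2 with miR-205, -1.04 with miR-203 and 0.62 with miR-130a, so on it miR-205 was the lower. RRM1 read 7.0, 7.30 and 7.35 log2 with miR-205, 7.39, 7.82 and 7.82 with miR-203, 8.22, 8.16 and 8.22 with miR-130a, and 8.38, 8.15 and 8.09 with scramble. RRM1 fell by 0.99 ± 0.13 and 0.53 ± 0.13 log2 with miR-205 and miR-203, and with miR-130a it lay at scramble's level (-0.01 ± 0.13 log2, adjusted p = 0.986), where RRM2 was 0.68 ± 0.15 higher. A second RRM1 probe set read 0.11 log2 higher with miR-130a.

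TYMS, which makes thymidylate, read 8.01, 8.49 and 8.30 log2 with miR-205, 8.83, 9.11 and 9.06 with miR-203, 9.70, 9.67 and 9.75 with miR-130a, and 9.34, 9.59 and 9.31 with scramble. It fell by 1.14 ± 0.12 log2 with miR-205 and by 0.41 ± 0.12 with miR-203, and its miR-130a arrays lay just above scramble (0.30 ± 0.12, adjusted p = 0.095). TK1, the thymidine kinase of the salvage route, read 4.97, 5.68 and 5.45 log2 with miR-205, 6.25, 6.60 and 6.33 with miR-203, 6.83, 7.11 and 6.97 with miR-130a, and 6.81, 6.71 and 6.56 with scramble. TK1 fell with miR-205 (-1.33 ± 0.15 log2), while its miR-203 arrays overlapped with scramble (-0.30 ± 0.15, adjusted p = 0.149). DUT, which removes dUTP, fell by 0.62 ± 0.12 log2 with miR-205 and by 0.39 ± 0.12 with miR-203, and differed by 0.12 ± 0.12 with miR-130a (adjusted p = 0.525). The miR-203 calls of TYMS and DUT were lost without miR-203 replicate 1 (0.0674 and 0.0824), that of TYMS also without scramble replicate 2 (0.0717) and that of DUT without scramble replicate 1 (0.0807).

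All 4 tested chromatin members rose with miR-130a (median 0.50 log2), 3 of 4 fell with miR-205 (median -0.51) and 1 of 4 fell with miR-203 (median -0.22). The 25% called with miR-203 compares with 36.2% of all tested genes (18.9% lower). CHAF1A and CHAF1B are subunits of the chaperone CAF-1, which places new histones behind the fork. CHAF1B read 2.87, 3.17 and 3.01 log2 with miR-205, 3.43, 3.57 and 3.59 with miR-203, 4.22, 4.19 and 4.21 with miR-130a, and 3.73, 3.61 and 3.61 with scramble. It fell by 0.63 ± 0.08 log2 with miR-205 and rose by 0.56 ± 0.08 with miR-130a, and its miR-203 arrays lay just under scramble without passing (-0.12 ± 0.08, adjusted p = 0.289). CHAF1A read 4.98, 4.55 and 4.69 log2 with miR-205, 4.96, 4.83 and 4.81 with miR-203, 5.49, 5.64 and 5.61 with miR-130a, and 5.31, 5.13 and 4.97 with scramble. CHAF1A rose by 0.44 ± 0.11 log2 with miR-130a and fell by 0.40 ± 0.11 with miR-205, where 1 array reached the lowest scramble array, and its miR-203 difference was -0.27 ± 0.11 (adjusted p = 0.0789). The other CHAF1A probe sets gave -0.23 and -0.79 log2 with miR-203, -0.47 and -0.75 with miR-205, and 0.22 and 0.33 with miR-130a.

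ASF1B, a chaperone that hands histones to CAF-1, read 3.45, 4.03 and 3.59 log2 with miR-205, 3.99, 4.55 and 4.0 with miR-203, 5.59, 5.56 and 5.49 with miR-130a, and 4.97, 4.93 and 5.08 with scramble. ASF1B fell most of the 4 with miR-205 and miR-203, at -1.30 ± 0.16, -0.82 ± 0.16 and 0.55 ± 0.16 log2 from scramble. SLBP, which binds the stem loop of replication-dependent histone messages, read 7.21, 7.39 and 7.48 log2 with miR-205, 7.02, 7.33 and 7.33 with miR-203, 7.72, 7.80 and 7.81 with miR-130a, and 7.42, 7.33 and 7.43 with scramble. SLBP rose by 0.38 ± 0.10 log2 with miR-130a, but with miR-205 and miR-203 it overlapped with scramble (-0.03 ± 0.10, adjusted p = 0.856, and -0.17 ± 0.10, adjusted p = 0.199). The fall of CHAF1A with miR-205 was lost without miR-205 replicates 2 (0.083) or 3 (0.0661) or scramble replicate 1 (0.0781), and its rise with miR-130a without scramble replicate 3 (0.0611) or miR-130a replicate 2 (0.05). The rise of ASF1B was lost without miR-130a replicates 1 (0.0692) or 2 (0.0628) or scramble replicates 1 (0.055) or 2 (0.0664).

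Of the 5 tested repair members, 4 fell with miR-205 (median -0.48 log2), 3 fell with miR-203 (median -0.36) and 2 rose with miR-130a (median 0.30). RAD51AP1, a factor of recombination repair, read 5.17, 5.29 and 5.06 log2 with miR-205, 5.41, 5.76 and 5.94 with miR-203, 6.81, 6.83 and 6.75 with miR-130a, and 6.12, 6.14 and 5.94 with scramble. It fell by 0.89 ± 0.12 log2 with miR-205 and by 0.36 ± 0.12 with miR-203 (adjusted p = 0.0276), and rose by 0.73 ± 0.12 with miR-130a. BRCA1, which directs recombination repair, read 4.06, 3.82 and 4.24 log2 with miR-205, 3.88, 4.30 and 4.45 with miR-203, 5.21, 5.12 and 5.21 with miR-130a, and 5.19, 4.85 and 4.76 with scramble. BRCA1 fell to overlapping levels with miR-205 (-0.89 ± 0.15 log2) and miR-203 (-0.72 ± 0.15), and its miR-130a arrays overlapped with scramble (0.25 ± 0.15, adjusted p = 0.265). A second, dim BRCA1 probe set gave -0.28, -0.31 and 0.41 log2 with miR-205, miR-203 and miR-130a.

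EXO1, a nuclease of mismatch and recombination repair, read 2.9, 3.22 and 3.26 log2 with miR-205, 3.45, 3.46 and 3.47 with miR-203, 3.86, 4.22 and 3.98 with miR-130a, and 3.60, 3.53 and 3.54 with scramble. It fell by 0.43 ± 0.11 log2 with miR-205 and rose by 0.47 ± 0.11 with miR-130a, with a miR-203 difference of -0.09 ± 0.11 (adjusted p = 0.522). MSH6, a mismatch sensor, read 5.59, 5.79 and 5.97 log2 with miR-205, 5.36, 5.76 and 5.53 with miR-203, 6.46, 6.38 and 6.31 with miR-130a, and 6.12, 6.10 and 6.04 with scramble. MSH6 fell with miR-203 (-0.53 ± 0.11 log2) and did not pass with miR-205 (-0.30 ± 0.11, adjusted p = 0.0609) or miR-130a (0.30 ± 0.11, adjusted p = 0.0625). UNG, which removes uracil from DNA, fell by 0.48 ± 0.09 log2 with miR-205 and did not pass with miR-203 (-0.14 ± 0.09) or miR-130a (0.16 ± 0.09). The miR-203 call of RAD51AP1 was lost without miR-203 replicate 1 (0.101) or scramble replicates 1 (0.0744) or 2 (0.0846).

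Comparing the microRNA groups with each other does not use the scramble arrays' means. Against miR-203, miR-205 gave lower values for 26 of 46 members and higher values for 0 (median -0.44 log2 against -0.03 for all tested genes), where 21% of all tested genes were lower and 16.9% higher, and at an unadjusted p under 0.05 the number higher was also 0. The share was highest among helicase genes, 10 of 11, and 1 of 7 origin genes passed, GMNN (-0.50 ± 0.12 log2, adjusted p = 0.00653). MCM5 and TK1 differed most, by -1.20 ± 0.16 and -1.03 ± 0.15 log2, followed by TYMS (-0.73 ± 0.12), MCM4 (-0.72 ± 0.12) and RFC5 (-0.71 ± 0.15). This order holds for the brightest probe set of each gene. The other RFC5 probe sets gave -0.94 and -0.63 log2 from scramble with miR-205, against -0.50 and -0.53 with miR-203, and the second MCM5 probe set -0.86 against -0.42, so both differences are smaller on them. Of the 20 members that did not pass, 6 lay above 0, which were GINS3 (0.10 ± 0.10), CDC7 (0.14 ± 0.23), POLE (0.16 ± 0.14), RRM2 (0.07 ± 0.15), SLBP (0.13 ± 0.10) and MSH6 (0.23 ± 0.11, adjusted p = 0.114). MSH6 passed as higher with miR-205 without miR-205 replicate 1 (0.33 log2, adjusted p = 0.0435) or miR-203 replicate 2 (0.34, adjusted p = 0.0308). For RRM2 the second probe set gave differences from scramble of -1.57 log2 with miR-205 and -1.04 with miR-203, and on it miR-205 minus miR-203 was -0.53 log2 (adjusted p = 0.0157). Leaving out single arrays gave between 19 and 32 lower members.

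**Figure D4:**
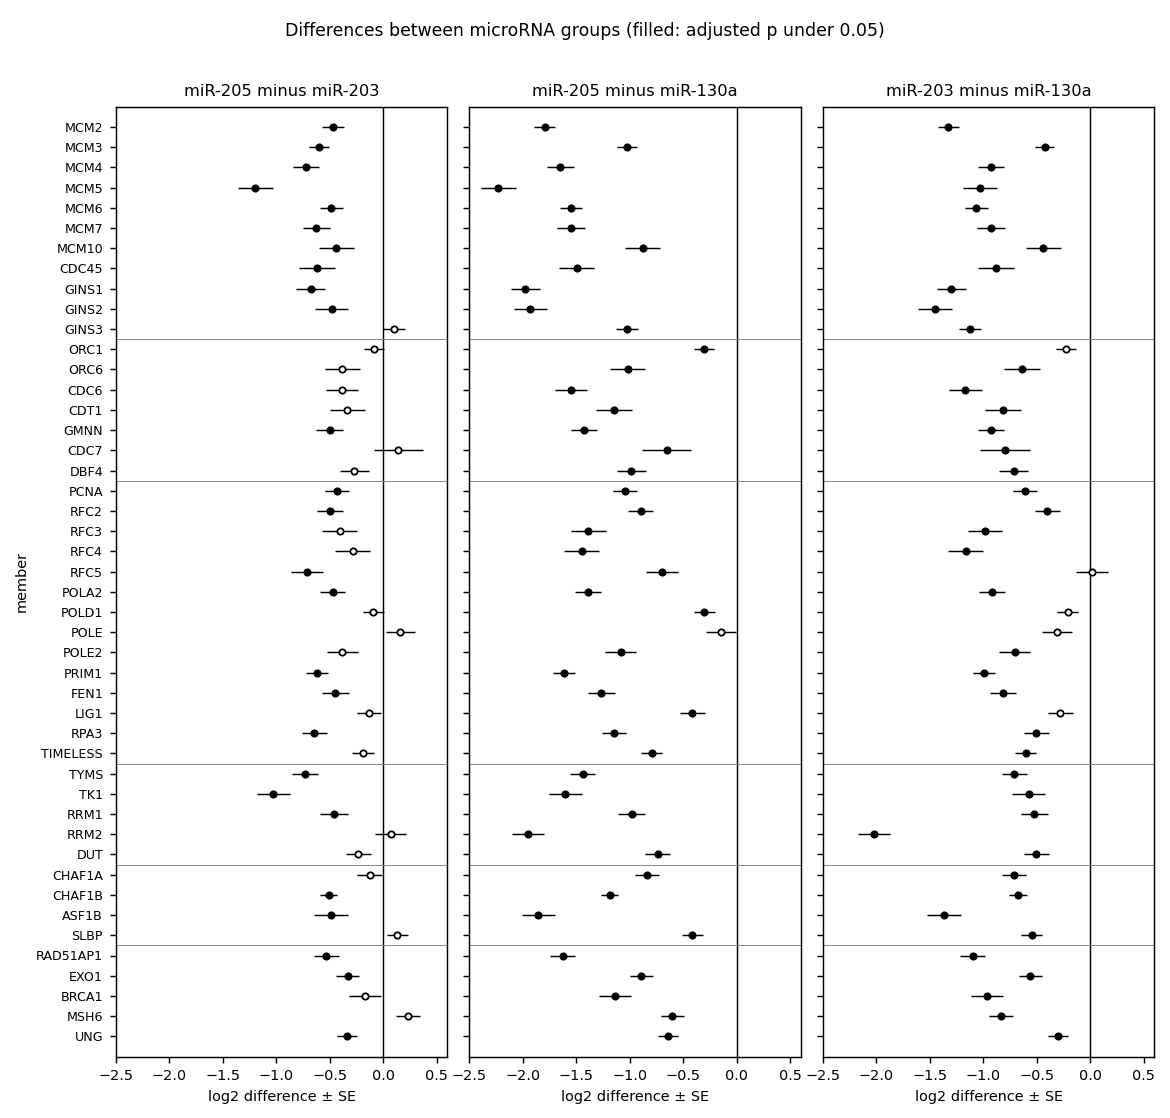
Points are log2 differences between microRNA groups with the standard error of the fit (3 arrays per group), 1 row per tested member, filled where the adjusted p was under 0.05. With miR-205 minus miR-130a all 46 points lie below 0 and 45 passed, with miR-203 minus miR-130a 45 lie below 0 and 41 passed, and with miR-205 minus miR-203 40 lie below 0 and 26 passed.

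Against miR-130a, miR-205 gave lower values for 45 of 46 members and higher values for 0 (median -1.14 log2 against 0.008 for all tested genes), where 18.2% of all tested genes were lower, 15.4% higher and 33.6% called either way. Of all genes called here, 45.8% were higher with miR-205, or 57.1% with each array centred on the median of tested genes, and with that centring 43 of 46 members were lower. The exception was POLE (-0.15 ± 0.14 log2, adjusted p = 0.457). MCM5 differed most on its brightest probe set, with 4.68 times as much signal with miR-130a as with miR-205 (-2.23 ± 0.16 log2). Its second probe set lay at -0.86 log2 from scramble with miR-205 and at 0.40 with miR-130a, a smaller gap. In the same comparison GINS1, RRM2, GINS2, ASF1B and MCM2 differed by -1.98 to -1.79 log2. ORC1, CDC7, POLD1 and LIG1, which did not pass against scramble, passed here (adjusted p = 0.022, 0.0439, 0.03 and 0.0143). ORC1 and POLD1 did not pass the F-test among the 4 groups, and the bound for LIG1 was 1.10-fold lower. Each of the 4 calls was lost on leaving out certain arrays: ORC1 without miR-205 replicate 3 (0.102) or miR-130a replicates 1 (0.0649) or 2 (0.104), and CDC7 without miR-205 replicates 1 (0.158) or 2 (0.0894), any miR-130a replicate (0.0819 to 0.123) or scramble replicate 1 (0.0568). POLD1 was lost without miR-205 replicates 1 (0.0521) or 3 (0.13) or miR-130a replicate 1 (0.136), and LIG1 without miR-205 replicate 3 (0.0582) or miR-130a replicates 1 (0.0611) or 3 (0.0652).

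Against miR-130a, miR-203 gave lower values for 41 of 46 members and higher values for 0 (median -0.76 log2 against 0.02), where 21.1% of all tested genes were lower and 20.1% higher. Of all genes called, 48.8% were higher with miR-203, or 59% with that centring, under which 40 of 46 members were lower. RRM2 differed most, at -2.02 ± 0.15 log2, or 4.06 times as much signal with miR-130a, followed by GINS2 (-1.45 ± 0.16), ASF1B (-1.37 ± 0.16), MCM2 (-1.33 ± 0.10) and GINS1 (-1.30 ± 0.14). The 5 members that did not pass were ORC1 (-0.23 ± 0.09, adjusted p = 0.0704), RFC5 (0.01 ± 0.15), POLD1 (-0.21 ± 0.10), POLE (-0.31 ± 0.14) and LIG1 (adjusted p = 0.0691), whose bound was 1.09-fold lower. On its other probe sets RFC5 lay lower with miR-203 than with miR-130a. Most of the 18 members that did not pass with miR-203 against scramble were called lower with miR-203 than with miR-130a. Among them were GMNN, TK1, CHAF1B and EXO1, lower by 0.93, 0.58, 0.68 and 0.56 log2.

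Members with and without the E2F letters in a listed promoter were set side by side as a description. With miR-205, 18 of 22 tested members with a match and 17 of 21 without one fell, with medians of -0.79 log2 for each. With miR-203, 15 of 22 with a match and 10 of 21 without one fell (medians -0.42 and -0.34). With miR-130a, 9 of 22 with a match and 10 of 21 without one rose (medians 0.37 and 0.31). E2F1, a member of the factor family, read 3.34, 3.24 and 3.29 log2 with miR-205, 3.55, 3.28 and 3.49 with miR-203, 4.26, 3.65 and 4.12 with miR-130a, and 3.69, 3.61 and 3.61 with scramble. With miR-130a it only just passed as higher (0.37 ± 0.13 log2, adjusted p = 0.0495), and its values overlapped with scramble. It did not pass with miR-205 (-0.35 ± 0.13, adjusted p = 0.0626) or miR-203 (-0.20 ± 0.13, adjusted p = 0.252), where they did not overlap.

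Other genes of replication and repair, from lists of 137 genes of which 104 were tested, were counted the same way. With miR-205, 29 of 104 were lower and 5 higher (median -0.16 log2), or 32.7% called, against 26.1% of all tested genes. With miR-203, 24 were lower and 14 higher (median -0.06), and the 36.5% called is at the background of 36.2%. With miR-130a, 25 were higher and 3 lower (median 0.12), or 26.9% called, against 23.6%. By direction, 14.8% of all tested genes were lower and 11.3% higher with miR-205. With miR-203 these shares were 18.9% and 17.3%, and with miR-130a 11.6% and 12%. Of the other chromatin assembly genes, 7 of 9 were lower with miR-205, among them the maintenance methyltransferase DNMT1 (-0.90 ± 0.11 log2), 4 of 9 lower with miR-203, among them the histone-binding RBBP4 (-1.01 ± 0.11) and the chaperone ASF1A (-0.53 ± 0.12), and 4 of 9 higher and 1 lower with miR-130a. HELLS, a chromatin remodeller, fell by 0.53 ± 0.12 log2 with miR-205 and rose by 0.51 ± 0.12 with miR-130a, and the histone chaperone NASP fell by 0.53 ± 0.11 with miR-205 and rose by 0.48 ± 0.11 with miR-130a.

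Among other polymerase and fork genes, 4 of 16 fell with miR-205, 5 of 16 fell and 1 rose with miR-203, and 4 of 16 rose with miR-130a. In either direction 25%, 37.5% and 25% were called, near the 26.1%, 36.2% and 23.6% of all tested genes. The calls with miR-205 and with miR-130a each went in a single direction. Of all tested genes, 14.8% were lower with miR-205, 18.9% lower with miR-203 and 12% higher with miR-130a. TOP2A, the topoisomerase that untangles copied DNA, fell by 1.48 ± 0.18 log2 with miR-205 and 0.68 ± 0.18 with miR-203, and RNASEH2A, of the nuclease that removes RNA from DNA, fell by 1.37 ± 0.10 with miR-205 and 0.87 ± 0.10 with miR-203. POLD3 (0.70 ± 0.12) and DNA2 (0.62 ± 0.12) rose with miR-130a. In the other helicase and origin list, 2 of 11 fell and 2 rose with miR-205, 4 fell and 2 rose with miR-203, and 5 of 11 rose with miR-130a. In that order 36.4%, 54.5% and 45.5% of this list were called, each above the share of all tested genes. GINS4, the remaining GINS subunit, fell with miR-205 (-0.73 ± 0.16 log2) and miR-203 (-0.64 ± 0.16), and ORC5, of the origin recognition complex, rose by 0.57 ± 0.07 with miR-205 and fell by 0.57 ± 0.07 with miR-203. WDHD1, a fork scaffold, and TOPBP1, which helps origins to fire, rose with miR-130a (0.60 ± 0.11 and 0.45 ± 0.14).

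The other nucleotide genes went both ways, with 5 of 16 lower and 1 higher with miR-205, 2 lower and 3 higher with miR-203, and 2 lower and 2 higher with miR-130a. The 37.5%, 31.2% and 25% called compare with 26.1%, 36.2% and 23.6% of all tested genes. NME1, a nucleoside diphosphate kinase, fell by 1.16 ± 0.08 log2 with miR-203, and SAMHD1, which breaks down deoxynucleotides, rose with miR-203 (0.57 ± 0.14) and miR-130a (0.85 ± 0.14). IMPDH2 and UMPS, enzymes of purine and pyrimidine synthesis, fell with miR-205 (-0.44 ± 0.07 and -0.40 ± 0.08 log2), and PPAT, of purine synthesis, rose with miR-130a (0.43 ± 0.08). In homologous recombination, 5 of 15 fell with miR-205, 5 of 15 fell with miR-203 and 3 of 15 rose with miR-130a. In that order 33.3%, 33.3% and 20% were called, all in the direction given. Of all tested genes, 14.8% were lower with miR-205, 18.9% lower with miR-203 and 12% higher with miR-130a. Called in either direction were 26.1%, 36.2% and 23.6% of all tested genes. The Fanconi anaemia genes FANCI (-1.07 ± 0.16 log2) and FANCG (-1.03 ± 0.12) led with miR-205, and they fell by 0.74 ± 0.16 and 0.72 ± 0.12 with miR-203. FANCI (0.47 ± 0.16) and RAD54B (0.63 ± 0.08) rose with miR-130a.

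End joining and checkpoint genes showed 4 of 15 lower and 1 higher with miR-205, 1 lower and 2 higher with miR-203, and 5 higher with miR-130a. So 33.3%, 20% and 33.3% were called, against 26.1%, 36.2% and 23.6% of all tested genes. MDC1, a scaffold at damaged chromatin, fell with miR-205 (-0.90 ± 0.13 log2) and miR-203 (-1.32 ± 0.13) and rose with miR-130a (0.68 ± 0.13), and the checkpoint kinase CHEK2 rose by 1.39 ± 0.10 with miR-130a and fell by 0.52 ± 0.10 with miR-205. The kinase CHEK1 fell by 0.80 ± 0.19 log2 with miR-205 and rose by 0.69 ± 0.19 with miR-130a, and RAD17, which loads a checkpoint clamp, rose by 0.45 ± 0.10 with miR-203. Excision repair had 2 of 19 lower and 1 higher with miR-205, 3 lower and 6 higher with miR-203, and 2 higher with miR-130a. Its shares called were 15.8%, 47.4% and 10.5%, below those of all tested genes except with miR-203. PARP1, which marks nicked DNA, rose by 0.28 ± 0.08, 0.30 ± 0.08 and 0.47 ± 0.08 log2 with miR-205, miR-203 and miR-130a, and RAD23B, of damage recognition, rose by 0.71 ± 0.09 with miR-203 and 0.35 ± 0.09 with miR-130a. MUTYH, a glycosylase, fell by 0.52 ± 0.09 log2 with miR-205 and 0.38 ± 0.09 with miR-203. The damage sensor DDB2 fell by 0.40 ± 0.12 log2 with miR-205 and 0.47 ± 0.12 with miR-203, and XPC, also of damage recognition, fell by 0.51 ± 0.09 with miR-203. Of the 3 tested mismatch repair genes outside the members, 0 passed against scramble in any of the 3 comparisons, with differences no further from 0 than 0.21 log2.

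**Figure D5:**
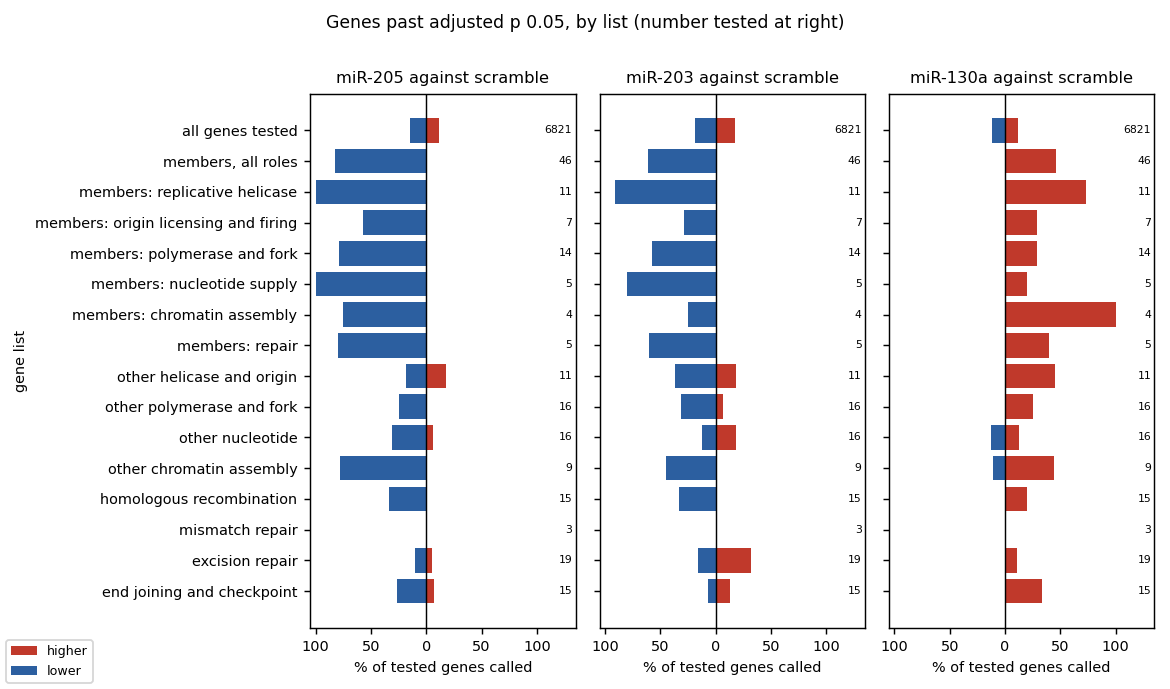
Bars give the percent of tested genes of each list that passed, higher to the right and lower to the left, with the number tested at the right of each panel. The bars of the members reach further left with miR-205 and miR-203 and further right with miR-130a than those of all tested genes.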

How the data were processed

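Total RNA of 12 LNCaP samples was read on arrays of 22277 probe sets. The deposited values are log2. The submitters' processing notes name R 2.9.0, limma and RMA but say nothing of what each did. The background method is not given in the sources used here. Probe sets with 1 gene symbol (19070) were used, and each gene took the probe set of highest mean over the 12 arrays. Genes above the array median on 3 or more arrays were tested. A group with no array above its median gives only a bound, which takes the other group's values as read, also where they lie under the median. Group means were fitted in limma 3.58.1 (R 4.3.3) over all 12 arrays with eBayes, two-sided, Benjamini-Hochberg over 6821 genes, threshold 0.05. The p-values set group differences against the spread between replicates within groups, and cover only these 12 samples of 1 line. The procedure was tested on simulated data. Same-numbered arrays of miR-205 and miR-203 deviated together (r 0.171, 0.105 and 0.313), so by a rule on these correlations alone their numbers pair them, which the labels do not say, and other groups' numbers do not. Alternatives covered filter, probe set, scaling, array weights, block and single arrays. Members and lists were chosen with earlier results of these data known. Every member is accounted for by role. Values on each array are given for up to 4 members of each role with the largest F statistic, those that passed in opposite directions, and those that did not pass against scramble. Other pathway genes are named where they are among the 2 largest called differences of a list in a comparison with scramble, and their further calls may be given beside them.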

Additional observations from a re-analysis of the deposited data

How the results depend on the processing

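Leaving out each array in turn, members lower with miR-205 than scramble numbered 36 to 40 (38 with all arrays), members lower with miR-203 17 to 28 (28) and members higher with miR-130a 16 to 24 (21). Members lower with miR-205 than miR-203 numbered 19 to 32 (26) and members higher 0 to 1 (0), the 1 being MSH6. Members lower than with miR-130a numbered 41 to 45 with miR-205 (45) and 38 to 42 with miR-203 (41), and 42 to 44 differed among the 4 groups (44). With no filter on dim probe sets, which tests 11963 genes, 14 of 47 members were lower with miR-203. Among the 29 members whose mean over the 12 arrays was above 5 log2, 29 were lower with miR-205 than miR-130a and 29 differed among the groups. Over the alternatives other than single arrays, members lower than scramble numbered 27 to 39 with miR-205 and 14 to 30 with miR-203. Those higher with miR-130a numbered 14 to 29, and those lower with miR-205 than miR-203 19 to 35. These ranges include the alternative that tested 29 members. On the probe set of largest variance, RFC5 was lower with miR-203 than scramble (-0.50 log2, adjusted p = 0.00999, against 0.10 on the brightest) and than miR-130a (-0.88, adjusted p = 0.000161, against 0.01). The mean of its probe sets gave -0.31 (adjusted p = 0.0259) and -0.63 (adjusted p = 0.000278). For RRM2 that probe set gave -0.53 for miR-205 minus miR-203 (adjusted p = 0.0157, against 0.07). For those RFC5 and RRM2 values the probe set itself is what differs, and for the other counts the cause was not tested. With the replicate number as a block, members lower with miR-205 numbered 37, lower with miR-203 29, higher with miR-130a 22, lower with miR-205 than miR-203 26 (30 in the 6 arrays compared, added after the data were seen), lower than with miR-130a 45 and 42, and 45 differed among the groups, so no count moved by over 1.5 times. Each member was counted only in the alternatives that tested it, and that with a mean above 5 log2 tested 29 members. On that count, 34 of 38 miR-205 calls against scramble held throughout, 14 of 28 miR-203 calls and 14 of 21 miR-130a calls.

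With 3 arrays per group the precision is limited. BLM and LIG1 lie near the floor of the scale (2.36 log2). CDC45, GINS3, ORC1, CDT1, POLE2 and LIG1 are the 6 tested members that were above the array median on some arrays only. With miR-205, the lowest arrays of CDC45, POLE2 and CDT1 read 2.44, 2.51 and 2.67 log2, so their miR-205 calls include values under the median. Of the tested members, 5 had exactly equal values on arrays of a group (20.9% of all tested genes did), which narrows their measured spread.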
